A study of Rattus norvegicus with 12 samples.

Results

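Peroxisomal beta-oxidation was followed in the renal cortex of rats through 9 genes: Acox2, Acox3, Ehhadh, Hsd17b4, Acaa1a, Acaa1b, Scp2, Decr2 and Crot. They were chosen by name, as enzymes of the pathway, with earlier results of these data known. All 9 were measured, among 29603 features tested, of which 11689 carried a gene symbol. The rats were male Crl:CD(SD) (Sprague-Dawley), bought at 5 weeks of age, and received either water as the vehicle or tert-butyl alcohol (TBA, spelled "tert-butyl alchol" in the labels) at 1000 mg/kg/day for 4 weeks. They were killed 24 h after the last dose by bleeding under CO2-O2 (4:1) or under isoflurane, which gave 4 groups of 3 rats each: vehicle CO2-O2, TBA CO2-O2, vehicle isoflurane and TBA isoflurane. Cortex RNA of each rat went onto 1 one-colour Agilent array, and the labels call the 3 rats of a group biological replicates. Every p-value here therefore measures the spread between these rats.

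The peroxisome shortens fatty acids that mitochondria handle poorly, such as very long chains, branched chains and the side chains of bile acid precursors. An acyl-CoA oxidase makes the first double bond and releases hydrogen peroxide, a bifunctional enzyme hydrates and oxidises the product, and a thiolase cuts off the short unit. The chain-shortened products leave for the mitochondrion as carnitine esters. In rodents many genes of the pathway are textbook targets of the nuclear receptor PPAR-alpha, and in the kidney peroxisomes are concentrated in the proximal tubule.

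Acaa1a and Acaa1b, the paired 3-ketoacyl-CoA thiolase genes, and Ehhadh, the bifunctional enzyme, gave the largest differences above 0 between TBA and vehicle rats on at least 1 probe each, so the starts of these 3 genes are shown. Each window runs from 250 bases before to 50 bases after the annotated start in RefSeq (build GRCr8), written 5′ to 3′ on the gene's strand. Capitals mark the pentamer CCAAT or its reverse complement ATTGG. The windows are chr8:127957231-127957530 on the plus strand, chr8:127759520-127759819 on the minus strand and chr11:92746159-92746458 on the plus strand.
Acaa1a: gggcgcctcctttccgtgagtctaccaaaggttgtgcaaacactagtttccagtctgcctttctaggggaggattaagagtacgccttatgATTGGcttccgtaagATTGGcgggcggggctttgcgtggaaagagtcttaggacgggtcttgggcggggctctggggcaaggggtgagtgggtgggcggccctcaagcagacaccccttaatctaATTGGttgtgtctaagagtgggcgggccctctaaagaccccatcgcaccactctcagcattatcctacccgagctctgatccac
Acaa1b: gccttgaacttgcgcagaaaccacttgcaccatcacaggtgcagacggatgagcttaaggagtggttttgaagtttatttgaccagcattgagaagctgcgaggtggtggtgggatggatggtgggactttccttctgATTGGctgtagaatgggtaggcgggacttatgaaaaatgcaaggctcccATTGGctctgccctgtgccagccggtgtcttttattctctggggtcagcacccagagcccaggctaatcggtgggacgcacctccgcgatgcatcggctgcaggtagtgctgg
Ehhadh: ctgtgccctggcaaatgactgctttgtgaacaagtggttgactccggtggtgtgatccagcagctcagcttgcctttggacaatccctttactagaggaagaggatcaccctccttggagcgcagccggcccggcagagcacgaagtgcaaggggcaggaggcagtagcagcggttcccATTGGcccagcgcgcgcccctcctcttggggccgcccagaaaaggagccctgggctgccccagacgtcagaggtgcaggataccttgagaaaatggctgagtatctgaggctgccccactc

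A window was found for each of the 9 genes. The Acaa1a window held the pentamer at 159, 144 and 34 bases before the start, the Acaa1b window at 112 and 63 bases, and the Ehhadh window at 71 bases. On either strand CCAAT stood in 6 of the 9 windows (Crot, Acaa1b, Acaa1a, Decr2, Ehhadh and Acox2), against 37.5% of the 33469 windows of this length in the table. The hexamer AGGTCA, searched on both strands, stood in 1 of the 9, Hsd17b4, at 56 bases before the start, against 16.2% of all windows. A direct repeat of that hexamer with 1 base of any kind between the copies, the spacing that PPAR-alpha with its partner is known to bind, stood in 0 of the 9 windows and in 0.0538% of all windows. It contains the hexamer, so these searches overlap. A match is a string of letters here and was not tested as a binding site.

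Values are log2 signals relative to the array's 75th percentile, so 0 is the brightness of the probe at that percentile. Levels of different probes are not compared, because each probe has its own brightness. Differences are TBA minus vehicle on the log2 scale, with the standard error (SE) of a single limma fit over all 12 arrays and a p-value adjusted by the Benjamini-Hochberg method over all 29603 features, and a feature is called at an adjusted p under 0.05. The averaged difference is the mean of the differences under CO2-O2 and under isoflurane. For a probe other than a gene's brightest, the fit and the adjustment ran over all 40216 kept probes. The same holds where the 6 thiolase probes are compared. All 15 probes of the 9 genes were well above background on all 12 arrays. Between 61.6% and 71.0% of probes were well above background per array, and replicate arrays correlated at 0.983 to 0.993 over all probes. Arrays sat on 3 slides: the 3 TBA isoflurane arrays had a slide to themselves, while TBA CO2-O2 rat 3 shared a slide and scan day with the 3 vehicle CO2-O2 arrays. The 3 vehicle isoflurane arrays shared the remaining slide with TBA CO2-O2 rats 1 and 2.

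Of the 9 genes, only Acaa1b was called in any comparison on its brightest probe. It was higher in TBA rats under isoflurane and in the averaged difference, while under CO2-O2 0 of 9 were called. The shares called among all features were 0.149% under CO2-O2, 0.395% under isoflurane and 1.88% for the averaged difference. At an unadjusted p under 0.05 the members numbered 1, 4 and 5 of 9 in that order, against 14.3%, 17.8% and 19.0% of all features. The averaged difference was above 0 for 8 of 9 genes (6 of 9 with quantile scaling), against 53.9% of features. Its median over the 9 was 0.22, beside 0.01 over all features. These counts describe the 9 genes, and they were not tested as a set.

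**Figure D1:**
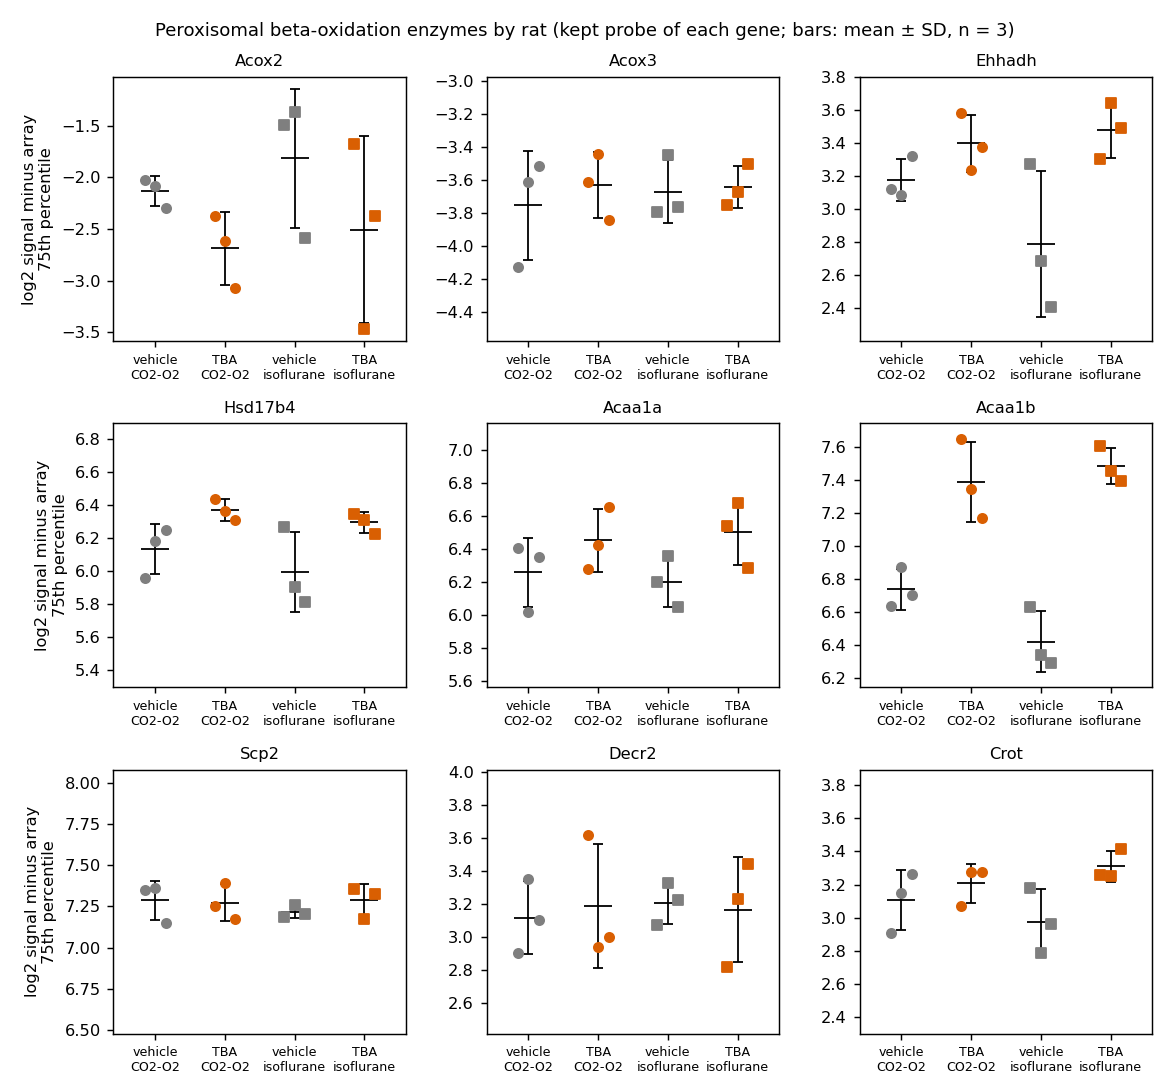
Log2 signal relative to the array's 75th percentile (y axis) for the brightest probe of each of the 9 genes in the 4 groups (x axis); each point is 1 rat, and bars give the mean ± SD (n = 3). For Acaa1b the 6 TBA rats read 7.17 to 7.65 and the 6 vehicle rats 6.29 to 6.87; in each of the other 8 panels the 6 TBA and 6 vehicle rats overlap.

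The cortex is a mixture of cells, and in bulk tissue more RNA per cell and more cells of a type cannot be told apart. All 12 markers of the proximal tubule's early segments were well above background on every array. Of these, 10 had an averaged difference above 0 and 2 were called higher, while 53.9% of all features were above 0 and 1.88% were called. The median was 0.19, beside 0.22 for the 9 enzymes. With quantile scaling these medians were 0.06 and 0.14. Their summed signal, in multiples of the array's 75th percentile, was 1146 to 1441 in vehicle CO2-O2 rats, 1559 to 1680 in TBA CO2-O2 rats, 1454 to 1559 in vehicle isoflurane rats and 1708 to 1833 in TBA isoflurane rats, without overlap within either gas. Its part in the differences of the 9 enzymes was not tested.

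Of 10 markers of the late proximal segment, all tested and well above background on every array, 5 had an averaged difference above 0 and 1 was called, with a median of 0.01. The gases differed in these markers: under CO2-O2 3 of 10 were above 0 with a median of -0.10, and under isoflurane, where Acaa1b was called, 8 of 10 with a median of 0.33. None of the 10 was called under either gas by limma (1 at an unadjusted p under 0.05 under CO2-O2 and 5 under isoflurane). The interaction of TBA with gas was above 0 for all 10, with a median of 0.49 and 0 called (2 at an unadjusted p under 0.05). Their summed signal was 1171 to 1306 in vehicle CO2-O2 rats, 969 to 1318 in TBA CO2-O2 rats, 917 to 1030 in vehicle isoflurane rats and 899.6 to 1426 in TBA isoflurane rats, and its part in the differences of the 9 enzymes was not tested.

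Of 8 fat cell markers, 6 were tested, 1 was above 0 and none was called by limma (1 at an unadjusted p under 0.05). Plin1 and Lep were not among the features tested, and the summed fat cell signal was 3.09 to 3.51 in vehicle CO2-O2 rats, 2.24 to 3.05 in TBA CO2-O2 rats, 1.96 to 2.75 in vehicle isoflurane rats and 1.99 to 3.67 in TBA isoflurane rats. TBA rats were lower under CO2-O2 without overlap, and the groups overlapped under isoflurane. All 7 podocyte markers were well above background on every array, and podocytes are cells of the glomeruli, which lie in the cortex.

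The oxidases carry out the first step. Acox2 acts on branched chains and bile acid precursors. It read -2.02, -2.08 and -2.30 in vehicle CO2-O2 rats and -2.38, -2.61 and -3.07 in TBA CO2-O2 rats, and these groups did not overlap. Under isoflurane it read -1.49, -1.37 and -2.59 with vehicle and -1.68, -3.47 and -2.37 with TBA. There the groups overlapped widely, with a low vehicle rat and a high TBA rat. The averaged difference of Acox2 was -0.62 ± 0.31 (SE, n = 3 per group, adjusted p = 0.313), the only one below 0 among the 9 genes, and its 95% interval ran from -1.31 to 0.07. Groups that did not overlap under CO2-O2 were also found in 21.0% of all features.

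Acox3, the second oxidase of branched chains, ranged from -4.13 to -3.45 in vehicle rats and from -3.84 to -3.44 in TBA rats. Its averaged difference was 0.08 ± 0.12 (adjusted p = 0.772, 95% interval -0.19 to 0.34). The groups overlapped under both gases.

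Single failed spots were those at least 4 log2 units below the lowest value on all other arrays, of any group. They numbered 12 on the array of vehicle CO2-O2 rat 2 and 12 on that of vehicle isoflurane rat 3, and 0 to 3 on each of the others. None was a probe of the 9 genes.

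Ehhadh and Hsd17b4 encode the bifunctional enzymes of the next step. Ehhadh, the L-specific enzyme, read 3.12, 3.09 and 3.32 in vehicle CO2-O2 rats and 3.58, 3.24 and 3.38 in TBA CO2-O2 rats, which overlapped. Under isoflurane it read 3.28, 2.69 and 2.41 with vehicle and 3.31, 3.65 and 3.49 with TBA. Vehicle rat 1 lay just under the lowest TBA rat there, and the other vehicle rats lay well below. The difference was 0.22 ± 0.20 (adjusted p = 0.650) under CO2-O2 and 0.69 ± 0.20 (adjusted p = 0.121) under isoflurane. The averaged difference was 0.46 ± 0.14 (adjusted p = 0.121), a fold of 1.37 with a 95% interval of 1.11 to 1.70. Without vehicle isoflurane rat 1 it was 0.58 with an adjusted p of 0.0364, so that rat decided whether Ehhadh was called.

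Hsd17b4, the D-specific bifunctional enzyme, had smaller differences with less scatter. Its brighter probe, A_64_P110009, read 5.96, 6.18 and 6.25 in vehicle CO2-O2 rats and 6.44, 6.36 and 6.30 in TBA CO2-O2 rats, all above the vehicle rats, as in 11.9% of all features. Under isoflurane the values were 6.27, 5.90 and 5.81 with vehicle and 6.34, 6.31 and 6.22 with TBA, and vehicle rat 1 lay inside the TBA range. The averaged difference was 0.27 ± 0.08 (adjusted p = 0.128). On the dimmer probe, A_44_P365531, the 6 TBA rats read 4.17 to 4.22 and no vehicle rat passed 4.10, so that the treatments did not overlap. All TBA rats lay above all vehicle rats on 1.36% of all 40216 kept probes. The averaged difference of A_44_P365531 was 0.29 ± 0.08 (adjusted p = 0.107), and neither probe was called.

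The thiolases carry out the last step of the cycle. Acaa1b was the most changed gene of the 9. Its brightest probe, A_44_P161052, read 6.64, 6.87 and 6.70 in vehicle CO2-O2 rats and 7.65, 7.34 and 7.17 in TBA CO2-O2 rats. Under isoflurane it read 6.63, 6.34 and 6.29 with vehicle and 7.61, 7.46 and 7.39 with TBA. The lowest TBA rat lay 0.30 above the highest vehicle rat over both gases, a separation found in 1.5% of all features.

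The Acaa1b difference was 0.65 ± 0.13 (adjusted p = 0.104) under CO2-O2, a fold of 1.57. Within the slide that held both treatments under CO2-O2, where rat 3 was the only TBA rat, it was 0.43. Under isoflurane the gene rose by 1.06 ± 0.13 (adjusted p = 0.0316), a fold of 2.09. The averaged rise was 0.86 ± 0.10 (adjusted p = 0.00579), a fold of 1.81 with a 95% interval of 1.56 to 2.10. It ranked 23rd by p among the features tested. The averaged rise stayed called in each of the 26 alternatives run, leaving out any 1 array included, with adjusted p from 0.00174 to 0.0259. Among these alternatives, the fit of only the arrays compared used every array here and so repeated the reported fit. Slide as a fixed term and a single scan day could not be fitted for the averaged rise and are not among them.

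The call under isoflurane alone was less secure. Without an array of vehicle CO2-O2 rat 1, 2 or 3, vehicle isoflurane rat 2 or 3, or TBA isoflurane rat 1, 2 or 3, it was lost, with differences of 1.00 to 1.11 and an adjusted p of at most 0.113. With slide as a random block the difference was 1.08 (adjusted p = 0.0685). Under isoflurane, TBA and slide could not be told apart.

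Acaa1a has 3 probes on the array, and they gave different pictures. The brightest, A_43_P11432, which stood for the gene in the counts above, read 6.40, 6.02 and 6.35 in vehicle CO2-O2 rats and 6.28, 6.42 and 6.65 in TBA CO2-O2 rats. It read 6.20, 6.36 and 6.05 with vehicle and 6.54, 6.68 and 6.28 with TBA under isoflurane. Its groups overlapped under both gases, and the averaged difference was 0.25 ± 0.10 (adjusted p = 0.233).

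The other Acaa1a probes separated the treatments. A_44_P516745 read 5.30, 5.37 and 5.35 in vehicle CO2-O2 rats, 6.16, 6.04 and 5.75 in TBA CO2-O2 rats, 5.42, 5.41 and 5.19 in vehicle isoflurane rats and 6.13, 6.03 and 5.96 in TBA isoflurane rats. A_64_P158491 read 5.92, 6.04 and 5.94, then 6.72, 6.53 and 6.32, then 5.94, 5.88 and 5.71, then 6.68, 6.61 and 6.53 in the same order of groups. On both probes every TBA rat was above every vehicle rat. With all kept probes fitted one by one, the averaged rises were 0.67 ± 0.08 (adjusted p = 0.00603) and 0.66 ± 0.07 (adjusted p = 0.00587). Averaging the 3 probes of Acaa1a gave 0.53 (adjusted p = 0.00924).

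The other Acaa1b probes also separated the treatments, with smaller differences under isoflurane than the first: 0.80 and 0.74, folds of 1.74 and 1.67. A_64_P029333 read 6.57 to 6.64 in vehicle CO2-O2 rats, 7.04 to 7.41 in TBA CO2-O2 rats, 6.34 to 6.63 in vehicle isoflurane rats and 7.25 to 7.39 in TBA isoflurane rats. A_64_P029335 read 5.21 to 5.51 in the 6 vehicle rats and 5.85 to 6.14 in the 6 TBA rats. Their averaged rises were 0.72 (adjusted p = 0.00525) and 0.65 (adjusted p = 0.00508). Among the 6 thiolase probes, 5 kept all TBA rats above all vehicle rats, as did 1.36% of all 40216 kept probes, and the same 5 were called under isoflurane and in the averaged difference. None of the 6 was called under CO2-O2, where those 5 gave differences of 0.56 to 0.65 with adjusted p of 0.0626 to 0.108.

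Acaa1a and Acaa1b encode near-identical enzymes, so a probe assigned to one may also bind RNA of the other, and the probes of both names are not independent of each other. Which gene each of the 6 probes reads was not tested, because probe sequences were not used here.

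**Figure D2:**
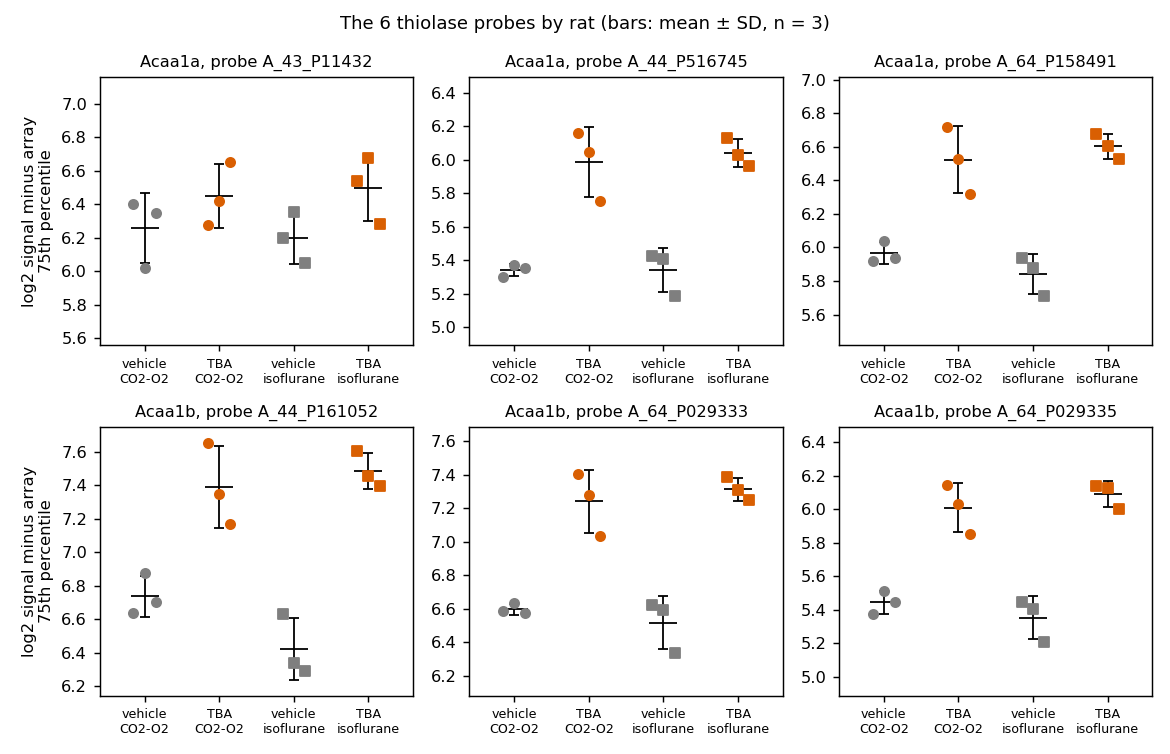
Log2 signal relative to the array's 75th percentile (y axis) for the 3 probes of Acaa1a (top) and the 3 of Acaa1b (bottom) in the 4 groups (x axis); each point is 1 rat, and bars give the mean ± SD (n = 3). Every TBA rat lies above every vehicle rat in 5 panels, and the groups overlap for A_43_P11432.

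Scp2 encodes a peroxisomal thiolase of branched chains together with a sterol carrier protein. Its brighter probe, A_42_P672217, ranged from 7.15 to 7.36 in vehicle rats and from 7.17 to 7.39 in TBA rats, which is nearly the same span. The averaged difference was 0.03 ± 0.06 (adjusted p = 0.840). The 95% interval, -0.11 to 0.16, corresponds to folds of 0.930 to 1.12, the narrowest interval of the 9 genes. The second probe, A_44_P428782, gave 0.01 ± 0.06 (adjusted p = 0.953).

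Decr2 encodes a reductase that removes double bonds from unsaturated chains so that they can enter the cycle. It read 2.90, 3.35 and 3.10 in vehicle CO2-O2 rats and 3.62, 2.94 and 3.00 in TBA CO2-O2 rats. Under isoflurane it read 3.07, 3.33 and 3.22 with vehicle and 2.82, 3.23 and 3.44 with TBA. A single TBA rat was high under CO2-O2, and the groups overlapped under both gases. The averaged difference was 0.01 ± 0.15 (adjusted p = 0.973), with a 95% interval from -0.32 to 0.34 that leaves folds of 0.804 to 1.27 possible.

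Crot encodes the octanoyltransferase that hands shortened chains to carnitine. It read 2.90, 3.15 and 3.26 in vehicle CO2-O2 rats and 3.07, 3.27 and 3.28 in TBA CO2-O2 rats. Under isoflurane it read 3.18, 2.78 and 2.96 with vehicle and 3.26, 3.25 and 3.42 with TBA, and there every TBA rat was above every vehicle rat, as in 14.3% of all features. The difference was 0.10 ± 0.12 (adjusted p = 0.745) under CO2-O2 and 0.33 ± 0.12 (adjusted p = 0.196) under isoflurane. The averaged difference was 0.22 ± 0.09 (adjusted p = 0.208).

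**Figure D3:**
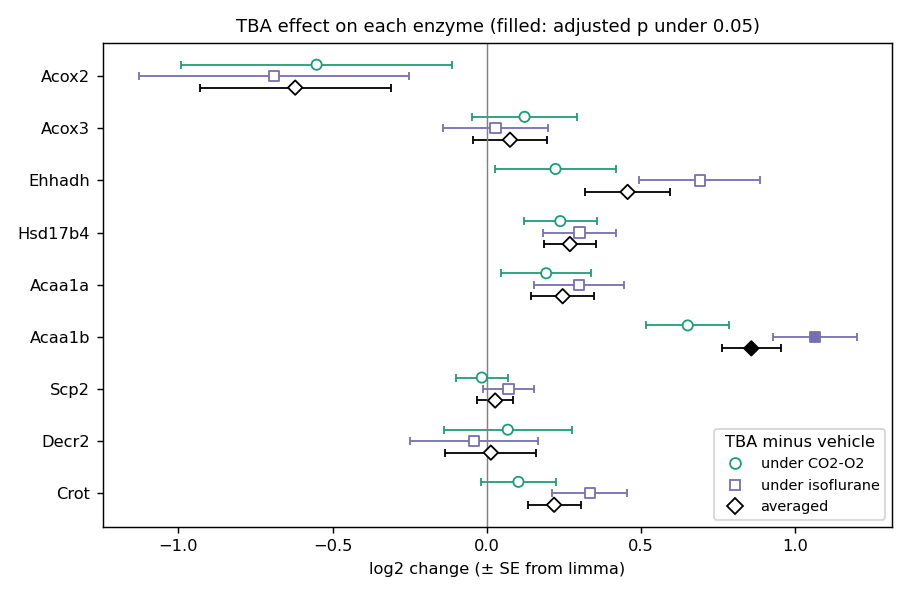
TBA minus vehicle on the log2 scale (x axis, ± SE from limma, n = 3 rats per group) for the brightest probe of each gene (y axis), under CO2-O2, under isoflurane and averaged; filled symbols have an adjusted p under 0.05. Filled symbols appear for Acaa1b under isoflurane (1.06) and averaged (0.86), and Acox2 is the only gene whose averaged difference lies below 0 (-0.62).

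The design also asks whether the gas at the kill changed the response or the level. No interaction between TBA and gas was called among the 9 genes or among all features (0.0%, with 12.1% at an unadjusted p under 0.05 by limma). The difference of differences was 0.41 ± 0.19 for Acaa1b (adjusted p = 0.427, 95% interval -0.01 to 0.84) and 0.47 ± 0.28 for Ehhadh (adjusted p = 0.528, 95% interval -0.15 to 1.09). On the other Acaa1b probes it was 0.15 (A_64_P029333) and 0.17 (A_64_P029335), with adjusted p of 0.690 and 0.608, so the larger value belonged to the brightest probe. The intervals include differences between the gases up to their bounds as well as 0.

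No slide held both gases among vehicle rats or among TBA rats, and the vehicle groups also differed in scan day. Gas and slide were therefore not separated in the differences that follow. Among vehicle rats, Acaa1b was 0.32 lower under isoflurane than under CO2-O2 (-0.32 ± 0.13, adjusted p = 0.248), with groups that narrowly missed each other, as groups did in either direction in 29.2% of features. Over the alternatives run this difference ranged from -0.64 to -0.08. Ehhadh differed by -0.39 ± 0.20 (adjusted p = 0.323). Among TBA rats the gases differed by 0.10 ± 0.13 for Acaa1b and 0.08 ± 0.20 for Ehhadh. None of the 9 genes was called for gas in vehicle rats (0.105% of features were) or in TBA rats (0.00676%). On the other Acaa1b probes the vehicle difference was -0.08 and -0.09, so the low vehicle isoflurane values of Acaa1b belonged mainly to 1 probe. All 10 late proximal markers were also lower in vehicle isoflurane rats than in vehicle CO2-O2 rats, with a median of -0.47 and none called by limma (6 at an unadjusted p under 0.05), and in TBA rats their median was 0.06. Their part in the gas differences of Acaa1b and Ehhadh was not tested. These comparisons use the same arrays as the TBA effects and add no independent evidence on them.

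The response of the 9 genes was set beside the rest of the peroxisome. Among peroxisomal entry and helper enzymes, such as importers, activating enzymes and thioesterases, 18 of 21 were tested and 1 was called: Ech1, an auxiliary isomerase of unsaturated chains, rose by 0.38 ± 0.06 (adjusted p = 0.0259). It read 4.74 to 4.85 in vehicle CO2-O2 rats, 4.98 to 5.18 in TBA CO2-O2 rats, 4.48 to 4.79 in vehicle isoflurane rats and 5.07 to 5.13 in TBA isoflurane rats. All TBA rats were above all vehicle rats, as in 1.5% of all features. The list's median was 0.07. Slc27a2, an activating enzyme of very long chains (0.24, adjusted p = 0.0689), and Acot4, a peroxisomal thioesterase (0.38, adjusted p = 0.172), were not called. Slc25a17, a carrier of the peroxisomal membrane, differed by -0.14 (adjusted p = 0.148).

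Peroxins build the organelle and import its proteins. All 16 on the list were tested, 8 were above 0 and 8 below, and none was called by limma (2 at an unadjusted p under 0.05). Their median was 0.01, equal to that of all features. Pex5, the import receptor, had an averaged difference of 0.14 (adjusted p = 0.0786) on its brightest probe, and its probes ranged from -0.06 to 0.14.

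Of 19 tested peroxisomal enzymes and membrane proteins outside beta-oxidation, 2 were called and the median was -0.05. Baat, which conjugates bile acids to glycine or taurine, read 0.64, 0.02 and 0.37 in vehicle CO2-O2 rats and 2.11, 1.16 and 1.43 in TBA CO2-O2 rats. Under isoflurane Baat read 0.29, 0.33 and 0.80 with vehicle and 1.15, 1.14 and 1.19 with TBA. Every TBA rat was above every vehicle rat over both gases, as in 1.5% of all features. The averaged rise of Baat was 0.96 ± 0.17 (adjusted p = 0.0328). Prdx5, a peroxiredoxin that removes peroxides, rose by 0.23 ± 0.04 (adjusted p = 0.0375). Hao1, a peroxisomal oxidase of 2-hydroxy acids, differed by -0.70 ± 0.18 (adjusted p = 0.0845).

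Mitochondrial fatty acid oxidation, which takes up the shortened chains, gave 19 of 19 tested genes above 0 (16 of 19 with quantile scaling), against 53.9% of all features. The median was 0.20, and 11 of 19 had an unadjusted p under 0.05 by limma, against 19.0% of all features. Of these 19, 1 was called: Eci1, an isomerase of unsaturated chains, rose by 0.60 ± 0.12 (adjusted p = 0.0411). Decr1, the mitochondrial counterpart of Decr2, had a difference of 0.38 ± 0.09 (adjusted p = 0.0680). Acaa2, the mitochondrial thiolase, had one of 0.29 ± 0.08 (adjusted p = 0.0846), and Acads, the short-chain acyl-CoA dehydrogenase, one of 0.22 ± 0.06 (adjusted p = 0.0908).

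Other PPAR-alpha targets had the highest median of the lists, 0.40 over 16 of 18 tested, with 3 called: Vnn1, a pantetheinase (0.88 ± 0.15, adjusted p = 0.0292), Plin2, a lipid droplet coat protein (0.47 ± 0.08, adjusted p = 0.0292), and Acot2, a mitochondrial thioesterase (0.42 ± 0.09, adjusted p = 0.0448). Slc27a1, a fatty acid importer, was just above the threshold at 0.37 ± 0.08 (adjusted p = 0.0519). Of the 16, 14 were above 0 (12 with quantile scaling), against 53.9% of all features. The other 2 were below 0, the lowest at -1.19 (adjusted p = 0.255). At an unadjusted p under 0.05 by limma, 9 were higher and 1 lower, against 19.0% of all features in either direction. The lists were drawn up with earlier results of these data known, and their direction is not independent evidence.

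**Figure D4:**
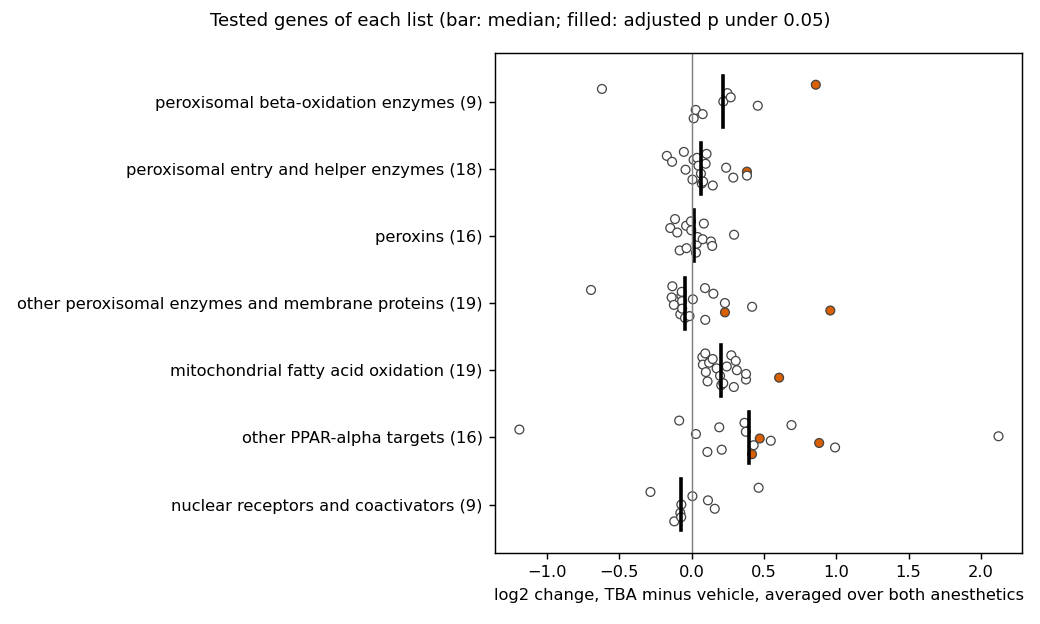
TBA minus vehicle averaged over both gases (x axis, log2) for the tested genes of the 9-gene set and 6 other lists (y axis, number of genes in brackets); each point is 1 gene, the black bar is the list's median, and filled points have an adjusted p under 0.05. Medians run from -0.07 for nuclear receptors and coactivators to 0.40 for other PPAR-alpha targets.

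These 7 calls outside the 9 genes rested on all arrays together. With 1 array left out in turn, Ech1 and Vnn1 were called in 4 of 12 fits, Plin2 in 3, Baat, Prdx5 and Eci1 in 2 and Acot2 in 1. None of the 7 was called without vehicle CO2-O2 rat 1, 2 or 3, TBA CO2-O2 rat 1, vehicle isoflurane rat 2 or 3, or TBA isoflurane rat 2. The differences stayed between 0.35 and 0.43 for Ech1, 0.82 and 1.06 for Baat, 0.21 and 0.26 for Prdx5, 0.54 and 0.71 for Eci1, 0.80 and 0.99 for Vnn1, 0.42 and 0.54 for Plin2 and 0.38 and 0.49 for Acot2. With quantile scaling Ech1, Prdx5, Eci1 and Acot2 were not called, and with no filter on dim probes none of the 7 was called.

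Among nuclear receptors and coactivators, 9 of 12 were tested, none was called in the averaged difference by limma (1 at an unadjusted p under 0.05), and the median was -0.07. Ppargc1a, a coactivator of oxidative genes, read -0.68, -0.83 and -0.67 in vehicle CO2-O2 rats and -0.45, -0.40 and -0.44 in TBA CO2-O2 rats. Under isoflurane it read -0.34, -0.28 and -0.28 with vehicle and -0.62, -0.85 and -0.76 with TBA. Every TBA rat was therefore higher than the vehicle rats under CO2-O2 (0.30 ± 0.07, adjusted p = 0.138) and lower under isoflurane (-0.44 ± 0.07, adjusted p = 0.0433). The difference of differences was -0.74 ± 0.10 (adjusted p = 0.116), and without any 1 of the 12 arrays the isoflurane call was lost, at differences of -0.50 to -0.39. Under CO2-O2, 11.9% of all features were higher in every TBA rat than in every vehicle rat. Features with opposite directions under the gases were not counted. Acaa1b and Ehhadh had differences above 0 under both gases, and the part of Ppargc1a in them was not tested.

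The 5 genes whose values lay nearest to those of Acaa1b over the 12 arrays were Glud1, Rnd1, Eci1, Mamdc4 and Slc25a25. Likeness was the root mean square difference between values centred on each gene's own mean. It was 0.153 for Glud1, glutamate dehydrogenase of the mitochondrion, 0.179 for Rnd1, 0.211 for Eci1, 0.218 for Mamdc4 and 0.226 for Slc25a25, a mitochondrial ATP-magnesium carrier, against a median of 0.493 over all symbols. Acaa1a probes A_44_P516745 and A_64_P158491 lay at 0.166 and 0.135, as near as the other Acaa1b probes at 0.135 and 0.152, while the brightest Acaa1a probe lay at 0.406. Within the pathway Ehhadh followed at 0.275, Hsd17b4 at 0.323 on its first listed probe and 0.322 on the other, and Crot at 0.375. A gene with the same value on every array would lie at 0.467, the SD of Acaa1b over the arrays. The averaged differences of the nearest genes were 0.63 for Glud1, 0.70 for Rnd1, 0.65 for Mamdc4 and 0.74 for Slc25a25. A difference above 0 was fixed by their selection and was not tested.

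**Figure D5:**
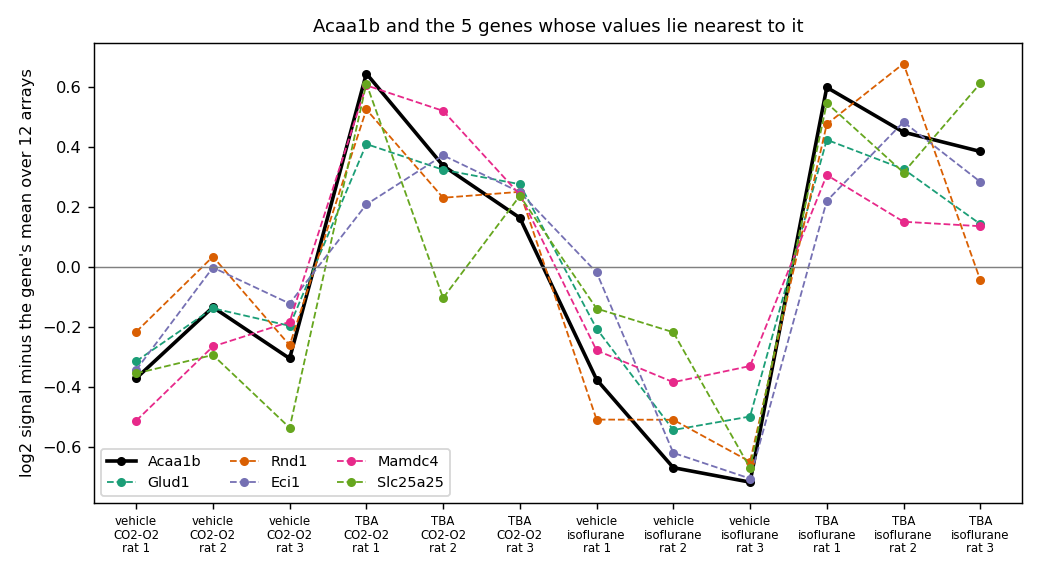
Log2 signal minus the gene's own mean over the 12 arrays (y axis) for Acaa1b and the 5 nearest genes in each rat (x axis); lines join the points of a gene and imply no order of rats. Acaa1b lies above its mean in all 6 TBA rats and below it in all 6 vehicle rats; among the other 5 genes the exceptions are Rnd1, above its mean in vehicle CO2-O2 rat 2 and below it in TBA isoflurane rat 3, and Slc25a25, below its mean in TBA CO2-O2 rat 2.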

How the data were processed

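Renal cortex RNA (0.2 µg, Cy3, per the labels) of 12 rats was measured on Agilent arrays. The authors' deposited scanner files hold intensity values: the processed signal, background-subtracted and not scaled between arrays. The file headers name Feature Extraction 10.7.1.1 as the software and rn4 as the array's annotation. The deposited series table holds the ratio of that signal to the array's 75th percentile, found by comparison with the scanner files. Its columns each matched a scanner file of the right group but a different number, and rats are numbered by scanner file.

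Control spots and outlier spots were left out. Log2 of the processed signal minus the array's 75th percentile was analysed. A probe was kept if some group had it well above background in all 3 rats (40216 of 61657 probes), and the probe with the highest mean stood for its gene. Of the 61657 probes, 27460 had 1 symbol, 0 several and 34197 none. Symbols were updated through RefSeq's GRCr8 table. The fit used limma 3.58.1 in R 4.3.3, 1 mean per group, 8 residual and 1.89 prior degrees of freedom, and Benjamini-Hochberg adjustment. It was tested on simulated data. The number of arrays limits the precision. The 9 genes, the lists and the tests were chosen with earlier results of these data known. Named were the 9 genes with every probe, up to 4 genes per list by lowest adjusted p of the averaged difference, and the 5 genes nearest to Acaa1b. Some genes of the lists are not reported here and are not counted in them.

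Alternatives covered background correction (normexp, offset 50), scaling, the series table, the filter, probe averaging, slide, scan day, the replicate number, the arrays fitted, the spread estimate, the features tested and each array left out.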

Additional observations from a re-analysis of the deposited data

Results flagged for a closer look

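Ppargc1a, the coactivator described above, was the only one of the 9 genes and the named list genes in which all TBA rats lay on one side of the vehicle rats under CO2-O2 and on the other side under isoflurane. How many of all features did so was not counted. For Ppargc1a the interaction of TBA with gas was -0.74 on the log2 scale (limma, unadjusted p = 2.72e-05, adjusted p = 0.116), so the difference between the gases did not pass the threshold. The 3 TBA isoflurane arrays shared a slide with no other group. Groups of 3 rats were not screened for single outlying rats.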

How the results depend on the processing

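The averaged rise of Acaa1b kept its call under all alternatives that could be fitted for it (0.65 to 0.91), and no result changed sign while called. For that rise the fit of only the arrays compared repeated the reported fit. Acaa1a depended on the probe. Under CO2-O2 it was 0.46 for the mean of its probes, 0.40 with slide as a fixed term and on scan day 1 alone, and 0.64 and 0.56 on A_44_P516745 and A_64_P158491. Under isoflurane these probe choices gave 0.59, 0.70 and 0.76 and averaged 0.53, 0.67 and 0.66, each called. For Acaa1b under CO2-O2, slide as a fixed term and scan day 1 alone gave 0.43, with a single TBA array. Its isoflurane difference of 1.06 lost the call with no filter on dim probes (adjusted p = 0.119), on scan day 2 alone (0.0884), in the replicate block (0.0845) and with only the arrays compared (0.154), and at 1.08 with slide as a random block. Members called under isoflurane were 0 in those fits, 2 with mean or separate probes and 0 to 1 without single arrays, where the Acaa1b difference was 1.00 to 1.17. Averaged, they were 2 with mean or separate probes and 1 to 2 without single arrays. Features called ranged from 0 to 1334 under isoflurane (117 in the reported fit), 1 to 162 under CO2-O2 (44) and 63 to 1091 averaged (558); the cause was not tested. Same-numbered rats did not visibly deviate together (correlations -0.133 to 0.133, 5 of 12 arrays nearest to their own number). These values showed no pairing by number, but they cannot exclude one. Slide as a fixed term could not be fitted for isoflurane or for the averaged difference. The averaged difference could not be fitted on a single scan day either. The number of arrays, 3 per group, limits the precision.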
